A study of Mus musculus with 9 samples.

Results

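The genes C1qa, C1qb and C1qc encode the 3 chains of complement C1q. Every probe set that the array's annotation assigns to 1 of these genes and to no other was taken, which gave 5 of the 45037 probe sets tested: 1 for C1qa, 3 for C1qb and 1 for C1qc. The values come from peripheral blood taken at E12.5 from mouse embryos on a mixed C57BL6/129SvEv background. The embryos carried 2 copies (CbfbΔC95/ΔC95), 1 copy (Cbfb+/ΔC95) or no copy (Cbfb+/+) of the ΔC95 allele of Cbfb, and all came from matings of heterozygous parents. They are called homozygous, heterozygous and wild-type here. The study is titled for the C-terminus of CBFβ-SMMHC, a fusion of the core binding factor subunit CBFβ with smooth muscle myosin heavy chain, and the labels describe the allele no further. Each array was hybridized with RNA of pooled blood of 8 to 10 embryos, with 3 arrays per genotype. Whether the 3 arrays of 1 genotype hold blood of different pools is not stated. The p-values therefore rest on array-to-array spread, which may be technical only.

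C1q is the recognition unit of the classical complement pathway. Its A, B and C chains pair their collagen-like tails and end in globular heads that bind immune complexes, dying cells and other surfaces, after which the proteases C1r and C1s are activated. Most complement proteins are made by the liver, whereas C1q is made mainly by macrophages and dendritic cells, and its transcripts are widely used as markers of tissue macrophages.

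All 3 chains fell in homozygous blood relative to wild type, by 6.93-fold to 12.1-fold in 4 of the 5 probe sets and by 1.66-fold in the other. By the test applied to all probe sets (limma, Benjamini-Hochberg adjusted p under 0.05), 5 of 5 were lower in homozygous blood, where 11.7% of all probe sets were called lower. The homozygous arrays did not overlap the wild-type arrays in any of the 5, which held for 32.4% of all probe sets. In heterozygous blood none of the 5 was called. Values are deposited log2 values, so that a difference of -1 is a halving, and they are relative within an array.

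C1qa, the gene of the A chain, was at 3.43, 4.36 and 3.95 on the log2 scale in the 3 homozygous arrays. It was at 6.95, 7.04 and 6.97 in heterozygous arrays and at 6.93, 6.93 and 6.94 in wild-type arrays. The homozygous arrays were far below the others and more spread out, and the heterozygous and wild-type arrays lay close together. The homozygous minus wild-type difference was -3.02 ± 0.17 (SE, log2), an 8.11-fold fall (limma, adjusted p = 1.15e-07).

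C1qb, the gene of the B chain, was at 4.32, 4.05 and 3.54 in homozygous arrays by the probe set 1417063_at. The same probe set gave 7.47, 7.46 and 7.52 in heterozygous arrays and 7.50, 7.63 and 7.56 in wild-type arrays. Its difference of -3.60 ± 0.15 (SE, log2) between homozygous and wild-type blood was a 12.1-fold fall (limma, adjusted p = 1.42e-08). This was the largest fall of any of the 45037 probe sets in that comparison. The C1qc and C1qa probe sets ranked 12 and 14, and the C1qb probe sets 1437726_x_at and 1434366_x_at ranked 19 and 1367.

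C1qc, the gene of the C chain, was at 3.73, 4.78 and 4.80 in homozygous arrays. It was at 7.25, 7.12 and 7.12 in heterozygous arrays and at 7.60, 7.52 and 7.51 in wild-type arrays. The 3 genotypes did not overlap, with heterozygous arrays a little below wild-type arrays. The homozygous minus wild-type difference was -3.11 ± 0.22 (SE, log2), an 8.62-fold fall (limma, adjusted p = 7.14e-07).

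**Figure D1:**
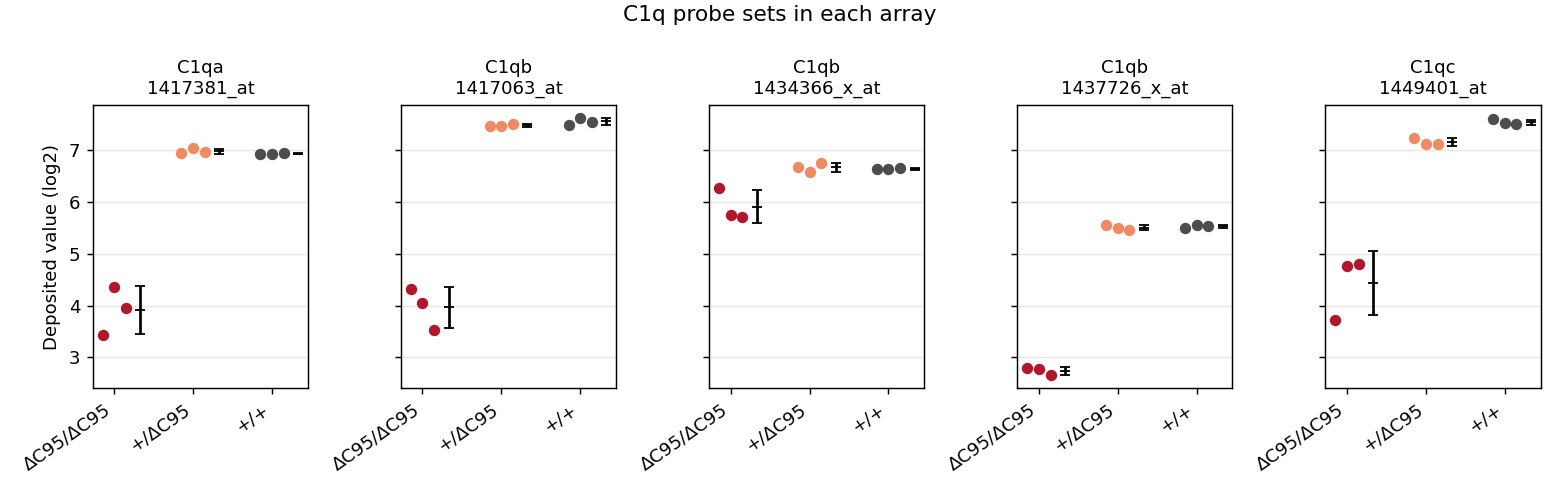
Deposited log2 value of each C1q probe set (panels) in each array (points, 3 per genotype), with the mean and SD of the genotype beside the points. The homozygous arrays (ΔC95/ΔC95) lie lowest in every panel, by least for C1qb 1434366_x_at, and the heterozygous (+/ΔC95) and wild-type (+/+) arrays lie close together.

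The C1q genes lie next to each other on mouse chromosome 4, in the order C1qb, C1qc, C1qa in RefSeq's annotation. RefSeq's promoter windows for 2 of the 3 genes are shown because the genes fell together and the altered gene, Cbfb, encodes a partner of the RUNX transcription factors. Each window runs from 250 bases before to 50 bases after the start site on the minus strand of GRCm38.p6, written 5′ to 3′ along the gene. Capitals mark matches to 6 motifs searched on either strand: the RUNX site TGTGGT, its variant TGCGGT, the PU.1 core GAGGAA, the MAF element TGCTGA, the AP-1 site TGANTCA and the C/EBP site TTGCNNCAA.
C1qb, chr4:136886151-136886450: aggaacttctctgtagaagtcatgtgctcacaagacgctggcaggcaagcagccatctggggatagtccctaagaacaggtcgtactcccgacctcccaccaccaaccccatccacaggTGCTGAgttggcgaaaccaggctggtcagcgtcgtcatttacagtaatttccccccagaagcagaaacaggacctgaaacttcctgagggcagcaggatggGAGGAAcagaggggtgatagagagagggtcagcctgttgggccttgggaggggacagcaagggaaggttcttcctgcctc
C1qc, chr4:136892865-136893164: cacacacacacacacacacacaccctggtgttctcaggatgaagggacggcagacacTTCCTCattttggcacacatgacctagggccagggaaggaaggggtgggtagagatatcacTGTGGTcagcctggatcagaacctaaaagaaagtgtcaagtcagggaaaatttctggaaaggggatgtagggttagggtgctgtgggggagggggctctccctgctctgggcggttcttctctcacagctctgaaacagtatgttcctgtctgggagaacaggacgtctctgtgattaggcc

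The C1qc window holds 1 match to TGTGGT, at -132 to -127 from the start site, and 16.76% of 32851 promoter windows of this length hold that motif. No RUNX match was found in the C1qb window. Each window holds 1 match to the PU.1 core, at -30 to -25 in C1qb and, on the opposite strand, at -193 to -188 in C1qc, and 28.28% of all windows hold one. The C1qb window also holds the MAF element at -131 to -126, a motif of 19.48% of windows. The RUNX variant TGCGGT (6.45% of windows), the AP-1 site (7.81%) and the C/EBP site (2.08%) matched in neither window. The matches do not overlap each other, and a match describes letters and not binding.

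The 3 probe sets of C1qb differed in size. The probe set 1437726_x_at was at 2.79, 2.77 and 2.65 in homozygous arrays, against 5.50, 5.55 and 5.54 in wild-type arrays, a difference of -2.79 ± 0.06 (SE, log2; 6.93-fold; limma, adjusted p = 7.22e-11). The probe set 1434366_x_at was at 6.28, 5.76 and 5.71 in homozygous arrays, against 6.64, 6.63 and 6.66 in wild-type arrays, and changed only by -0.73 ± 0.12 (SE, log2; 1.66-fold; limma, adjusted p = 0.000803). In the naming of the array's maker, the suffix _x_at marks probe sets of which some probes also match other transcripts.

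Within each array, 1434366_x_at minus 1417063_at averaged 1.95 ± 0.23 in homozygous arrays and -0.92 ± 0.07 in wild-type arrays (SD, log2, n = 3 each). The gap between these probe sets of the same gene thus changed by 2.87, without overlap (exact permutation test, 2-sided, p = 0.1, the smallest that 3 against 3 arrays allow). Against 1437726_x_at the change in gap was 2.07, and between 1417063_at and 1437726_x_at it was -0.80, each with the same exact permutation p. Adjusted over the 30 gaps tested, from 10 pairs in 3 comparisons, these p-values were 0.188, so none could pass. In heterozygous minus wild-type blood the gaps within C1qb changed by -0.06 to 0.11, and the arrays overlapped.

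Between different genes, the gaps among C1qa, C1qc and the 2 C1qb probe sets that fell most overlapped between homozygous and wild-type arrays in each of 5 pairs. The gap of C1qa minus C1qc was -0.52 ± 0.30 in homozygous arrays and -0.61 ± 0.06 in wild-type arrays (SD, log2, n = 3 each), a change of 0.09 (exact permutation p = 0.7). This was the smallest change of the 5. C1qa minus 1417063_at changed by 0.58 and C1qa minus 1437726_x_at by -0.23. The gap of 1417063_at minus C1qc changed by -0.49 and that of 1437726_x_at minus C1qc by 0.31. Homozygous SDs of these further gaps were 0.48 to 0.96, so overlap does not show that the chains fell equally. These C1qb probe sets were singled out by their fall: against 1434366_x_at, the gap of C1qa changed by -2.29, and that of 1434366_x_at minus C1qc by 2.38, both without overlap. The homozygous arrays differed more among themselves than the other arrays: their SD was 0.46 for C1qa, 0.40 for 1417063_at and 0.61 for C1qc. Wild-type SDs were 0.01, 0.07 and 0.05 for the same probe sets (log2, n = 3 each). Homozygous replicate 1 was the lowest of its genotype for C1qa and C1qc and the highest for each C1qb probe set.

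The rank within the array shows where the homozygous signals lay. In homozygous arrays C1qa lay between the percentiles 32.48 and 51.41 of all probe sets, 1417063_at between 34.04 and 50.99, and C1qc between 38.72 and 60.25. In wild-type arrays the same probe sets lay between 88.39 and 92.32. The probe set 1437726_x_at lay between 14.33 and 18.11 in homozygous and between 72.79 and 73.72 in wild-type arrays. The probe set 1434366_x_at stayed between 76.69 and 83.65 in homozygous arrays, against 86.27 to 86.61 in wild-type arrays. Detection calls were not used here, so it is unknown which of these homozygous values lie above background, and a fold change to such low values may be understated.

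Homozygous blood also differed from heterozygous blood in every C1q probe set. The differences were -3.07 ± 0.17 for C1qa, -3.52 ± 0.15 for C1qb by 1417063_at and -2.73 ± 0.22 for C1qc (SE, log2; limma, adjusted p = 2.8e-07, 3.06e-08 and 6.03e-06). The other C1qb probe sets changed by -2.77 (1437726_x_at) and -0.76 (1434366_x_at). All 5 were called lower, against 7.95% of all probe sets. This comparison and the one with wild type share the homozygous arrays.

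No C1q difference was called in heterozygous relative to wild-type blood, either at the adjusted threshold or at an unadjusted p under 0.05 (limma, 0 of 5 each, smallest unadjusted p = 0.103), where 5.15% of all probe sets were called lower and 3.41% higher. For C1qa the difference was 0.05 on the log2 scale, with a 95% interval of -0.31 to 0.42. For C1qb it was -0.08 (-0.40 to 0.24) by 1417063_at, -0.02 (-0.15 to 0.11) by 1437726_x_at and 0.03 (-0.24 to 0.29) by 1434366_x_at. These differences hold relative to the other genes of the array. Setting the poly-A spike-ins (bacterial RNAs added before labelling) equal lowers every probe set by 0.88 in this comparison. All 5 were then called lower, at -1.26 to -0.83, and the share of all probe sets called so was not counted.

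C1qc was the chain with the largest heterozygous difference, at -0.38 ± 0.22 (SE, log2; 1.30-fold; limma, adjusted p = 0.396), with a 95% interval of -0.85 to 0.09. Its heterozygous and wild-type arrays did not overlap, which held for 2 of the 5 C1q probe sets and for 24.1% of all probe sets. The other was that of C1qa, in the opposite direction, with heterozygous arrays slightly above wild-type arrays. The spread in this fit is shared by the 3 genotypes. Fitted on heterozygous and wild-type arrays alone, the C1qc difference had an SE of 0.06 and was called (limma, adjusted p = 0.0049). It was also called without homozygous replicate 1 (limma, adjusted p = 0.00223). The share of all probe sets called was counted in neither of these fits. Within the array, C1qa minus C1qc was -0.18 ± 0.11 in heterozygous and -0.61 ± 0.06 in wild-type arrays (SD, log2, n = 3 each). This gap changed by 0.44, and the gaps of the C1qb probe sets to C1qc changed by 0.30 to 0.41 in the same direction. None of these 4 gaps overlapped between the genotypes (exact permutation p = 0.1 each, the smallest possible, and 0.188 adjusted over the 30 gaps). All 4 gaps share the C1qc probe set and the same arrays, so they are not independent of each other.

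**Figure D2:**
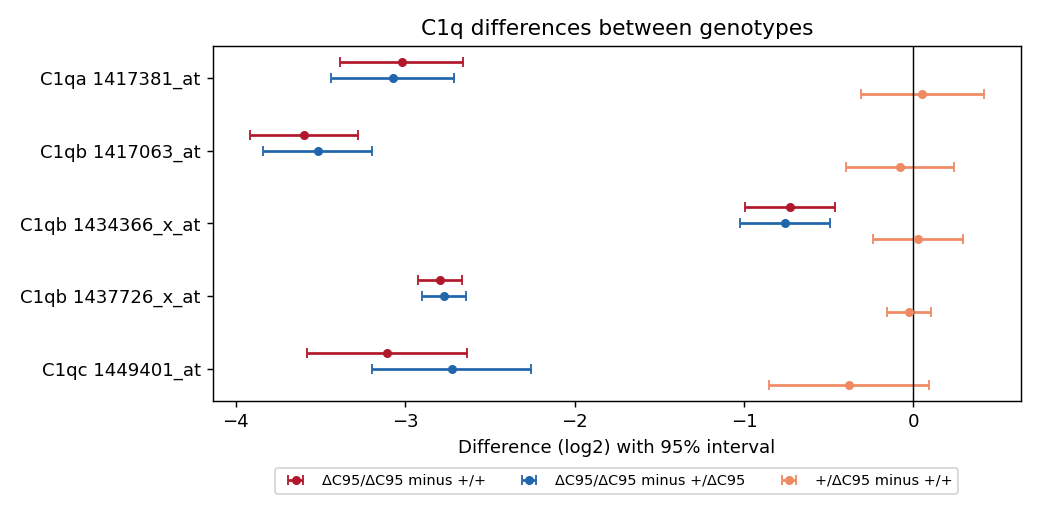
Difference between genotypes (log2, horizontal axis) for each C1q probe set, with the 95% interval of the limma fit. Both contrasts of homozygous blood lie between -3.60 and -2.73 for 4 of the probe sets and at -0.73 and -0.76 for C1qb 1434366_x_at, while the heterozygous intervals all include 0.

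The heterozygous values did not lie midway between the other genotypes on the log2 scale. The log2 midpoint lies below the midpoint of unlogged values, so deviations would be smaller on the unlogged scale, where they were not computed. Heterozygous minus the mean of homozygous and wild-type was 1.56 ± 0.14 for C1qa, 1.72 ± 0.13 for C1qb by 1417063_at, 1.37 ± 0.05 by 1437726_x_at and 1.17 ± 0.19 for C1qc (SE, limma). These 4 were called higher (adjusted p = 7.29e-05, 1.02e-05, 4.94e-08 and 0.00406), as were 2.65% of all probe sets. By 1434366_x_at the deviation was 0.39 and was not called (adjusted p = 0.0653).

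Markers of macrophages fell with the C1q chains. Of 19 measured macrophage and monocyte genes, 16 were called lower and 0 higher in homozygous than in wild-type blood, with a median difference of -1.66 on the log2 scale. Among all 18193 genes, 14.9% were called lower and 10.7% higher, and the median was 0.05. At an unadjusted p under 0.05 (limma), 17 were lower and 0 higher, and the share of all genes at that rule was not counted. Csf1r encodes the receptor for the growth factor CSF1 and changed by -3.48 by its brightest probe set and by -1.46 and -0.78 by the others. Adgre1, which encodes a surface receptor of mouse macrophages, changed by -1.30, and the lysosomal protein gene Cd68 by -1.23 (log2). The mannose receptor gene Mrc1 changed by -3.49 and the adaptor gene Tyrobp by -3.21. The cathepsin gene Ctss changed by -2.82 and the lysozyme gene Lyz2 by -2.53. The chemokine receptor gene Cx3cr1 (0.01) and the scavenger receptor gene Cd163 (-0.10) averaged 4.43 to 4.44 and 3.23 to 3.37 over the genotypes and were not called. In bulk samples, fewer cells of a type and less RNA per cell cannot be told apart.

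In heterozygous blood, 9 of the 19 macrophage genes were called lower and 1 higher, with a median of -0.28 on the log2 scale, against 7.04% and 4.79% of all genes. Lyz2 changed by -1.15, Ctss by -1.07, Mpeg1, a pore-forming protein gene of macrophages, by -0.70 and Csf1r by -0.56. Laptm5, a lysosomal membrane protein gene of blood cells, was the gene called higher, at 0.32, which would be below 0 with the spike-ins set equal. Its other probe sets were at -0.14 to 0.04 and not called. The 9 genes not called ranged from -0.34 (Tyrobp) to 0.43 (Cd68, below 0 with the spike-ins set equal). Among them were Mrc1 (-0.13), Fcer1g, the Fc receptor gamma chain gene (-0.05), and Cd14, the endotoxin co-receptor gene (-0.11). At an unadjusted p under 0.05 (limma), 12 of the 19 were lower and 2 higher, again without a share of all genes at that rule. The C1q chains were not called either. Whether the C1q chains and the other macrophage genes differ in their heterozygous change was not tested.

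**Figure D3:**
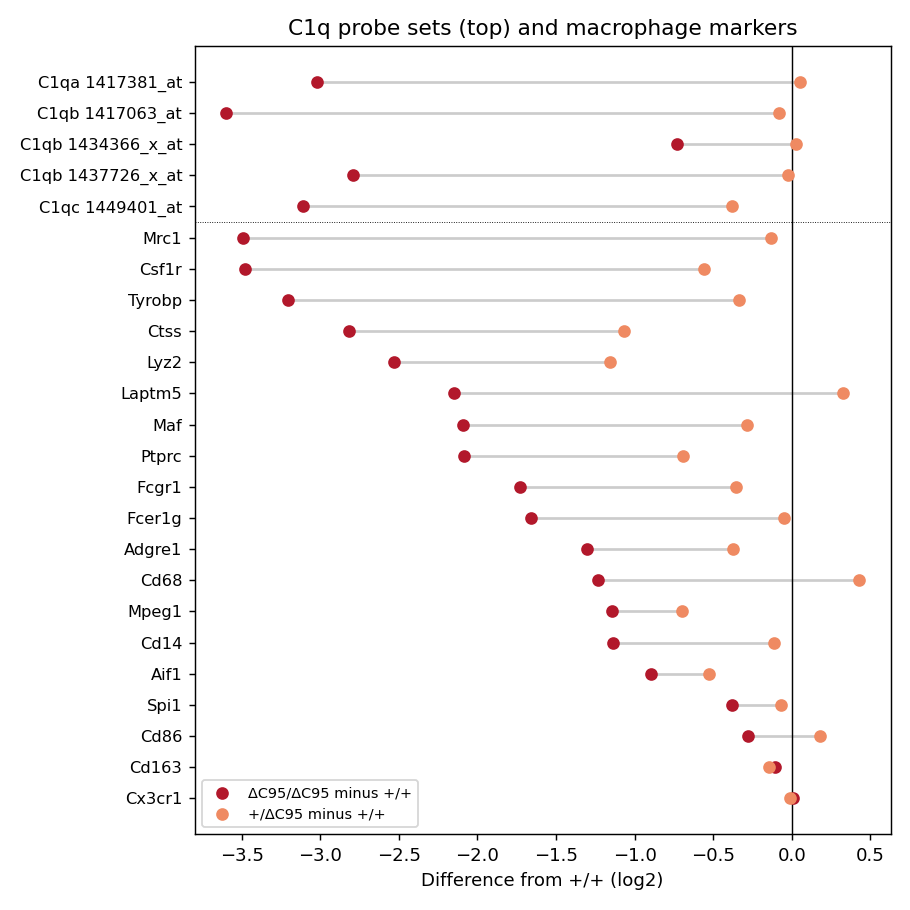
Difference from wild type (log2, horizontal axis) in homozygous (dark) and heterozygous (light) blood, for the 5 C1q probe sets above the dotted line and 19 macrophage genes below it, ordered by the homozygous value. In heterozygous blood the C1q points lie between -0.38 and 0.05, while Lyz2 and Ctss lie below -1.

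Lists of other cell types were counted in the same way. Among all genes, 14.9% were called lower and 10.7% higher in homozygous blood, and 7.04% and 4.79% in heterozygous blood. These shares are for the adjusted threshold, and none was counted for the unadjusted one. In homozygous against wild-type blood, 8 of 9 megakaryocyte and platelet genes, 3 of 10 neutrophil genes, 5 of 10 mesenchyme genes and 0 of 10 endothelial genes were lower (1 at an unadjusted p under 0.05, limma). Of 9 liver and visceral endoderm genes 6 were higher and 0 lower, with a median of 0.32 that would be below 0 with the spike-ins set equal. In heterozygous blood, 4 of 10 neutrophil genes were lower and 0 higher, with a median of -0.21, among them the calprotectin gene S100a8 (-1.32) and the myeloperoxidase gene Mpo (-0.77). Of 9 megakaryocyte genes 1 was higher and 0 lower (6 higher at an unadjusted p under 0.05, limma), with a median of 0.25 that would be below 0 with the spike-ins set equal. Of the mesenchyme, endothelial, erythroid and liver genes, 0, 0, 2 and 1 were lower and 2, 0, 0 and 0 higher. Erythroid genes were bright in every genotype. The mean of 9 genes was 12.30 to 12.36 in homozygous, 12.33 to 12.35 in heterozygous and 12.43 to 12.45 in wild-type arrays. Of these, 3 were called lower and 1 higher in homozygous blood. The embryonic globin genes Hba-x, Hbb-y and Hbb-bh1 averaged 14.2 to 14.4 over the genotypes. The highest value of the table was 14.56, so a change in these globin genes may be hidden. The mean of the 19 macrophage genes was 4.47 to 4.56 in homozygous, 5.84 to 5.91 in heterozygous and 6.15 to 6.21 in wild-type arrays. The poly-A spike-ins differed as well, by 1.58 in homozygous and 0.88 in heterozygous minus wild-type arrays (log2, 24 probe sets). With spike-ins set equal, all differences from wild type would be lower by these amounts: C1qa would then change by -4.60 in homozygous and by -0.83 in heterozygous blood. The targeted gene Cbfb, read by 1 probe set, was at 5.10 ± 0.16 in homozygous, 5.77 ± 0.04 in heterozygous and 6.01 ± 0.03 in wild-type arrays (SD, n = 3). The place of that probe set relative to the altered part of the gene was not analysed here, and its level is no check of the labels. All 5 C1q probe sets were called lower in homozygous blood without each array in turn. They were also called lower with the spike-ins set equal, which lowers every probe set by 1.58 and so could only enlarge these falls. The part of cell makeup in this result was not tested.

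The other complement lists were counted by each gene's brightest probe set, beside 14.9% of all genes called lower and 10.7% higher in homozygous blood and 7.04% and 4.79% in heterozygous blood. No such shares were counted for the unadjusted threshold. Of 4 measured genes of the classical pathway, none was called in either comparison with wild type (limma, 1 lower and 0 higher at an unadjusted p under 0.05 in each comparison). Another probe set of C2, the gene of a convertase component, was called lower in heterozygous blood (-0.32, adjusted p = 0.0375). In homozygous minus wild-type blood the C1 inhibitor gene Serping1 was at -0.23 (adjusted p = 0.0569) and C1ra, which encodes the protease C1r that C1q activates, at 0.20 (adjusted p = 0.197). Of 11 lectin and alternative pathway genes, 1 was higher and 0 lower: Masp1, a protease gene of the lectin pathway, at 0.31, whose other probe sets were at -0.04 to 0.17 and not called. Of 6 terminal component genes, 1 was higher and 0 lower: C6, at 0.25. In heterozygous blood no gene of these 2 lists was called (limma, 2 of 11 and 0 of 6 at an unadjusted p under 0.05). All of these differences are relative to the other genes of the array, and those that were called higher would be below 0 with the spike-ins set equal.

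Complement receptors and membrane regulators held 4 lower genes and 1 higher gene of 15 in homozygous against wild-type blood, with a median of -0.04 on the log2 scale. Clu, which encodes clusterin, an inhibitor of the terminal complex, was at 6.30 ± 0.12 in homozygous and 7.38 ± 0.01 in wild-type arrays (SD, n = 3), a difference of -1.08, with -1.87 to -1.08 over its other probe sets. C3ar1, the receptor for C3a on myeloid cells, changed by -0.86, with -0.20 (not called) and -1.18 by its other probe sets. Cd55, which speeds the decay of the convertases, changed by -0.64, with -0.16 (not called) and -0.41 by the others. Cd46, a cofactor for the cleavage of C3b and C4b, was the gene called higher, at 0.36, and would be below 0 by the spike-in scaling. In heterozygous blood Cd55 was called lower, at -0.49, while Clu was at -0.03 (not called). The regulator gene Cd59a was at -0.08 by its brightest probe set and not called. Another of its probe sets was called lower, at -0.68 (limma, adjusted p = 1.87e-05).

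Among 13 genes of C1q binding partners and receptors, 2 were lower and 1 higher in homozygous blood. C1qbp, named for its binding to the globular heads of C1q but a protein mainly of mitochondria, was at 10.65 ± 0.05 in homozygous, 10.55 ± 0.01 in heterozygous and 9.66 ± 0.03 in wild-type arrays (SD, n = 3). It was higher by 0.99 in homozygous and by 0.89 in heterozygous blood (log2; limma, adjusted p = 1.16e-07 in the homozygous comparison), and by the spike-in scaling it would be lower than wild type in homozygous blood. The calreticulin gene Calr changed by -0.41 and the decorin gene Dcn by -0.33 in homozygous blood (its other probe set was near 0 and not called), and Calr by -0.22 in heterozygous blood. The C1q receptor candidate gene Cd93 was at 0.19 in homozygous minus wild-type blood and was not called.

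Of 24 measured relatives with a C1q-like domain, 1 was lower and 2 higher in homozygous blood, with a median of 0.10 on the log2 scale. The collagen gene Col10a1 was at 0.37 and the synaptic protein gene C1ql1 at 0.20, both below 0 by the spike-in scaling, while Mmrn1, which encodes a platelet and endothelial protein, was at -0.33, with 0.16 (not called) by another probe set. None was called in heterozygous blood (limma, 3 at an unadjusted p under 0.05). Among 20 genes for the uptake of dying cells, a process that C1q aids, 4 were lower and 0 higher in homozygous blood (limma, 4 and 2 at an unadjusted p under 0.05). Abca1, a lipid exporter gene, was at 4.07 ± 0.26 in homozygous, 6.07 ± 0.06 in heterozygous and 7.02 ± 0.05 in wild-type arrays by its brightest probe set (SD, n = 3). Its homozygous difference of -2.95 (log2) was not shared by its other probe sets, which were at 0.07 and 0.13 and not called. Gas6, a bridging ligand, changed by -1.22 (its other probe set was at -0.14 and not called), the integrin gene Itgb3 by -0.82 (its other probe set was at -0.09 and not called) and the scavenger receptor gene Stab1 by -0.62. In heterozygous blood Abca1 was lower, at -0.94, and Stab1 and Dock1, an engulfment signalling gene, were higher, at 0.26 and 0.32, and would be below 0 by the spike-in scaling. Dock1 was at 0.07 by its other probe set and not called.

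**Figure D4:**
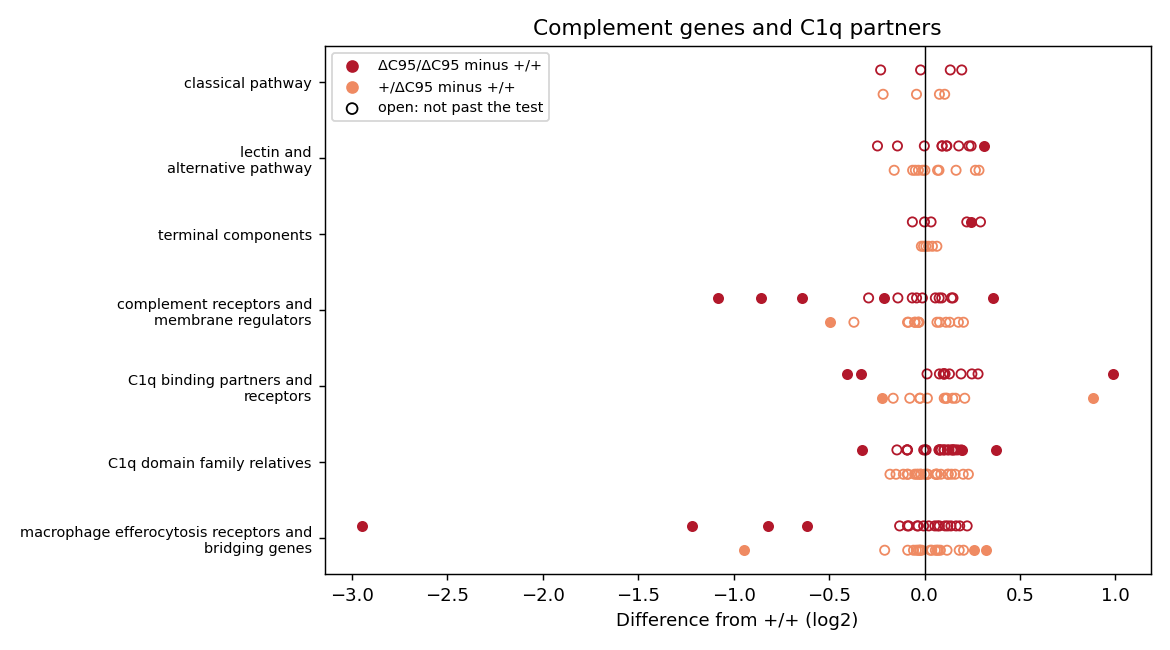
Difference from wild type (log2, horizontal axis) of each measured gene of 7 lists, in homozygous (dark) and heterozygous (light) blood; filled points passed the test and open points did not. Most genes lie near 0, and Abca1 at -2.95 is the lowest point. With poly-A spike-ins set equal, all points would shift down, by 1.58 (dark) and 0.88 (light).

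Genes with the most similar pattern over the 9 arrays were looked up by the root mean square difference of centred log2 values from the mean of the 3 chains, each by its brightest probe set over all arrays. For C1qb that is 1434366_x_at, which fell least. The nearest genes among 16328 were Fcrls, an Fc receptor-like gene, at a distance of 0.11, the transcription factor gene Maf (0.21), the actin-binding protein gene Tmsb4x (0.22), Hacd4 (0.22), Limd2 (0.22), Rsad2 (0.24), Ctla2b (0.24) and Laptm5 (0.25). The median distance over all genes was 1.08. The chains themselves lay farther from their mean profile than these 8 genes, at 0.40 (C1qa), 0.75 (C1qb) and 0.39 (C1qc). With 1417063_at for C1qb, a choice made after the values were seen, the nearest were Ifitm2 (0.17), Mrc1 (0.17), Ctsc (0.18), Fcgr3 (0.19), F13a1 (0.19), Ms4a6b (0.20), Csf1r (0.20) and Tyrobp (0.21). None of the 8 was shared between the choices, so the neighbours turn on the C1qb probe set. The likeness is that of genotype levels over 9 arrays, 3 of which are low.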

How the data were processed

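Gene expression in pooled embryonic blood was measured on 9 Affymetrix mouse arrays, 3 per genotype, as titled. RMA, Partek 6.5 and Affymetrix Expression Console 1.0 are listed, with no role, per the submitters' processing notes. The authors deposited 1 table of 45101 probe sets, taken as log2 values from its range (1.49 to 14.56) and from RMA being named; the labels do not state the scale. Array medians were 4.26 to 4.30, which removes uniform differences in RNA content. Detection calls were not used, and the number of arrays limits the precision.

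Leaving out 64 control probe sets, the 9 arrays entered 1 genotype model in limma 3.58.1 (R 4.3.3), with 2-sided tests adjusted by Benjamini-Hochberg over 45037 probe sets (threshold 0.05). Each of 18193 genes in lists was represented by its brightest probe set. The procedure was tested on simulated arrays. Gaps between probe sets used exact permutation tests. GEO's platform annotation named the genes; RefSeq tables (GRCm38.p6) gave promoters for 2 of 3 members. The members and lists were chosen with earlier results of these data known. Named are all C1q probe sets, up to 4 called members per list by size (otherwise up to 2 uncalled), Csf1r, Adgre1, Cd68, the 8 nearest genes and Cbfb. Cx3cr1, Cd163, Laptm5, Mpeg1, Fcer1g, Cd14, Cd93, C2, Cd59a, S100a8, Mpo and heterozygous values of further genes were chosen with their values in view. Replicate numbers showed no sign of pairing: the correlation of deviations was -0.02 to 0.07 for same-numbered arrays and -0.06 to 0.03 for others. Such values cannot establish that same-numbered arrays shared nothing. The alternatives were other fits, variance priors, normalizations, scalings, gene-level summaries and leaving out each array.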

Additional observations from a re-analysis of the deposited data

Results flagged for a closer look

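Control probe sets, which enter none of the comparisons, differed between genotypes. The poly-A spike-ins were higher by 1.58 on the log2 scale in homozygous arrays and by 0.88 in heterozygous arrays. The hybridization spike-ins, added after labelling, averaged 10.60 in homozygous and 10.32 in wild-type arrays, higher by 0.28, and 10.32 in heterozygous arrays. Groups of 3 arrays were not searched for outlying arrays.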

How the results depend on the processing

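In homozygous blood, all 5 C1q probe sets were called lower than in wild-type and in heterozygous blood under every alternative run. Among these alternatives, the spike-in scaling could only enlarge the falls. Without each array in turn, C1qa changed by -3.24 to -2.78, C1qb by -3.77 to -3.38 (1417063_at), -2.82 to -2.75 (1437726_x_at) and -0.91 to -0.63 (1434366_x_at), and C1qc by -3.29 to -2.75 (log2, homozygous minus wild-type). The heterozygous comparison depended on scaling. With poly-A spike-in means set equal, all 5 probe sets were called lower, C1qa and 1434366_x_at with a turned sign (-0.83 and -0.85), and 1417063_at, 1437726_x_at and C1qc at -0.96, -0.91 and -1.26. Every probe set of the array is lowered by 0.88 in this setting. With only heterozygous and wild-type arrays in the fit, 1 probe set, C1qc, was called at -0.38, and without each array in turn its value was -0.42 to -0.35, with 0 to 1 probe sets called, the call coming without homozygous replicate 1. Shares of all probe sets called were not counted under the alternatives. The heterozygous deviation from the midpoint of 1434366_x_at was called without the 40% dimmest probe sets (0.39), with an intensity trend (0.39), with array weights (0.41) and without homozygous replicate 1 (leave-one-out range 0.34 to 0.48). That of C1qc was no longer called without variance moderation (1.17, adjusted p = 0.0868). The number of macrophage genes called higher in heterozygous blood, 1, was 0 with the mean of a gene's probe sets and 0 to 2 without each array in turn. The replicate block, for numbers that showed no sign of pairing, left all 20 C1q calls as they were. With it, C1qc was at -0.38 in heterozygous minus wild-type blood and C1qa at -3.02 in the homozygous comparison with wild type. The causes were not tested. Of 732 list counts, probe set gaps and gene-level values under alternatives, 92 moved, counts by over 1.5 times. Signal over background is unknown, which limits how far the homozygous falls can be read.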
